A study of Homo sapiens with 39 samples.

Results

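The drug-free early growth of a pooled CRISPR knockout screen was followed in A375 cells that already lacked MED12, from day 0 to day 8. A375 is an established human melanoma line that grows on an activating BRAF mutation, and MED12 is a subunit of the kinase module of Mediator, the coactivator that links transcription factors to RNA polymerase II. Members were chosen by label as the 3 libraries of MED12 knockout cells sampled at day 0 and the 3 sampled at day 8 in DMSO, the vehicle of the drug arm, and they make up 6 of the 39 libraries of the series. Both groups carried the MED12 knockout and the same guide library, so day 0 was the only control and no cells with intact MED12 were part of the comparison. The other libraries of the series are vemurafenib arms, later harvests, a MED23 knockout screen with the same library and a whole-genome screen in MED12 knockout cells. The labels do not say whether the knockout line was 1 clone or how long before day 0 the library was delivered. They also do not say whether the 3 libraries of a day came from separate infections. Tests over libraries therefore measure the spread between these libraries, which may be technical. Libraries with the same replicate number were alike across the days (r = 0.51 to 0.53 for guide deviations from the group means). The main tests leave this pairing out.

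In a pooled screen each cell carries a guide that directs a nuclease to a gene, and the guide, integrated in the genome, serves as a barcode. Guides whose target is needed for growth are lost from the population as cells divide, and guides whose target restrains growth take up a larger share of it. Genes of translation, splicing, replication and the proteasome are the usual losers of such a screen. The usual winners are genes that hold back the cell cycle, among them checkpoint genes that act on cells with DNA breaks, including breaks that the nuclease makes.

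The library held 12214 guides. Of these, 11150 were aimed at 1115 genes, with 10 guides per gene, and the labels call the library an epigenetic one. The other 1064 were control guides, of which 83 were named CTRL, 714 were named Zhang, and 267 were aimed at AAVS1, a safe-harbour locus in which a cut disrupts no gene needed for growth. Day 0 libraries held 18526229 to 20616486 reads and day 8 libraries 16385695 to 19554798, with a median of 1014 to 1432.5 reads per guide. No guide was without reads at day 0, and 6 to 10 guides per library were at day 8. The most abundant 1% of guides took about 4.0% of the reads in each day 0 library and 5.55% to 5.58% at day 8. Reads came from PCR products, for which no molecular identifiers are described, so they cannot be taken as independent molecules. Counts were scaled on the control guides, and abundance is given below as CPM, the read count scaled to libraries of equal size.

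Guides against genes were lost broadly over the 8 days relative to the control guides. Counts were scaled on these, most of them CTRL or Zhang guides, so medians near 0 for both classes follow from the scaling. The median log2 change from day 0 to day 8 was 0.05 for CTRL guides, 0.05 for Zhang guides, −0.14 for AAVS1 guides and −0.35 for gene-targeting guides. Gene-targeting guides also spread more widely, with an SD of 0.64 over guides against 0.21 for CTRL, 0.23 for Zhang and 0.31 for AAVS1. Of the gene-targeting guides, 4302 (38.58%) lay below the 5th percentile of control guides, at −0.50, and 465 (4.17%) lay above their 95th percentile, at 0.35. The difference between the median of gene-targeting guides and that of all control guides was −0.95, −0.94 and −0.96 in the day 0 libraries and −1.33, −1.33 and −1.32 at day 8. It fell further by 0.38 ± 0.008 (SE, n = 3 libraries per day), with no overlap between the days (exact permutation test, 2-sided and unpaired, p = 0.1, the smallest this test allows). Gene-targeting guides were thus already the less abundant ones at day 0, and whether this came with the library or arose before day 0 was not tested, since no sample of the library before delivery was analysed here.

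AAVS1 guides fell a little against the other control guides, most of which are Zhang guides that the labels do not describe. The AAVS1 median lay 0.23, 0.23 and 0.25 below that of the CTRL and Zhang guides together in the day 0 libraries, and 0.53, 0.40 and 0.51 below it at day 8. The difference moved by −0.25 ± 0.04 (SE, n = 3), and every day 8 library lay beyond every day 0 library (exact permutation test, 2-sided, p = 0.1, the smallest possible). Of the AAVS1 guides, 41 (15.36%) were below the 5th percentile of control guides. CTRL and Zhang guides moved against each other by −0.10 (exact permutation p = 0.2). The median of gene-targeting guides moved by −0.15 against that of AAVS1 guides (exact permutation p = 0.1, the smallest possible). These shifts compare class medians within each library, and not the medians of guide changes given above.

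**Figure D1:**
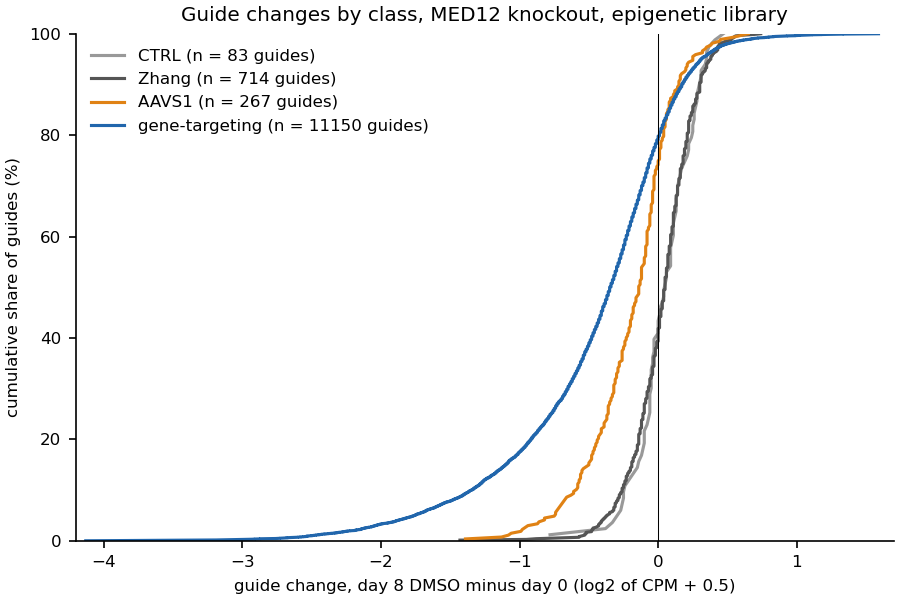
Cumulative share of guides (y axis, %) against the log2 change from day 0 to day 8 in DMSO (x axis), for the 3 classes of control guides and the gene-targeting guides. The CTRL and Zhang curves lie on top of each other around 0.05, the AAVS1 curve is shifted to a median of −0.14, and the gene-targeting curve has the longest lower tail.

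Each gene was summarised by its gene score, the mean log2 CPM over its guides, whose change is given with the SE over 3 libraries per day. Of 1115 genes, 1056 had a score change below 0 and 59 above 0. The median change was −0.35, with a 5th percentile of −1.32, a 95th percentile of 0.01 and a lowest value of −1.85. Guides of a gene differed from one another with a median SD of 0.42, against a median SE of 0.11 for the gene score. In 403 genes at least 5 guides lay below the 5th percentile of control guides, in 89 genes at least 9 did, and in 22 genes all 10 did. The reference of the scaling sets where 0 lies: scaling on all guides moved the median of all genes to −0.05, and scaling on AAVS1 guides alone to −0.21.

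A gene was called when several of its guides ranked together near an end of all gene-targeting guides, by robust rank aggregation of edgeR p-values (RRA, Benjamini-Hochberg adjusted p under 0.05 over all genes). By this rule 35 genes were called depleted (3.14% of those tested) and 34 enriched (3.05%), 32 of the latter with a score change above 0. Counts below of genes that fell or rose are counts of these calls, unless limma or the block is named. The calls at an adjusted p under 0.05 are the ones meant. At an unadjusted p under 0.05 there were 136 depleted and 67 enriched genes. Since ranks are taken among gene-targeting guides, this rule asks whether a gene stood out from the other targets, not whether it rose against control guides. An RRA p-value measures how far the guides of a gene agree, and guides are not replicates of the condition. A gene whose score is tested with limma against the control-guide scale, with libraries as replicates, passes more easily on the depleted side: 392 genes (35.2%) fell and 9 (0.807%) rose. Of the 35 depleted genes 34 were also called by limma, and of the 34 enriched genes 9 were. With the replicate number as a block, rank aggregation called 81 depleted (7.26%) and 36 enriched genes (3.23%), among them 29 of the 35 and 31 of the 34. These shares over all genes are the reference for each count of list members given below. All 35 depleted genes had their 3 day 8 libraries below their 3 day 0 libraries, as did 788 of all 1115 genes. Of the 34 enriched genes 20 had them all above, as did 24 of all genes.

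**Figure D2:**
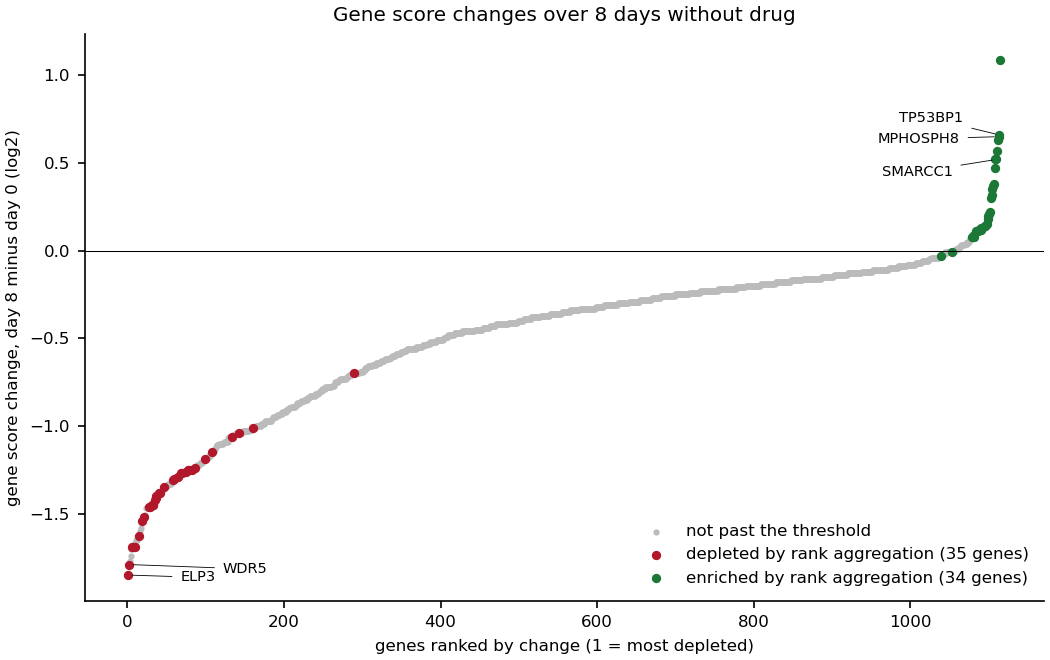
Gene score change from day 0 to day 8 (y axis, log2) of the 1115 genes in rank order (x axis), with the 35 genes called depleted and the 34 called enriched by rank aggregation in colour. Called depleted genes are scattered through the lower tail from −1.85 to −0.70, among many uncalled genes with changes as large, while the enriched calls hold nearly the whole upper end, with TP53BP1 at 0.66 and MPHOSPH8 at 0.65 among them.

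Guides against TP53BP1, CDKN1A and CHEK2, genes that act when DNA is broken, gained, unlike those against most other genes of that response. TP53BP1, which binds chromatin beside DNA breaks, summed to 1308, 1249 and 1320 CPM over its 10 guides in the day 0 libraries and to 2394, 2116 and 2433 CPM at day 8. No library of one day came near the other day. Its score rose by 0.66 ± 0.08 (RRA adjusted p = 6.71e-10), with 8 guides beyond the control limit. CDKN1A encodes p21, a CDK inhibitor that halts cells at the checkpoint, and it went from 1721, 1639 and 1779 CPM to 2986, 2860 and 2782 CPM. The rise of 0.52 ± 0.08 (RRA adjusted p = 1.17e-07) was carried by 8 guides past the limit, while 1 guide was below the lower one. CHEK2, a kinase activated by DNA breaks, rose by 0.32 ± 0.06 (RRA adjusted p = 1.49e-04), although limma gave an adjusted p of 0.0839. The kinases upstream lay below 0, with ATM at −0.38 ± 0.18 (limma 0.351), ATR at −1.10 ± 0.25 (limma 0.00475) and CHEK1, the other checkpoint kinase, at −0.90 ± 0.12 (limma 0.00765), none past rank aggregation (RRA adjusted p = 1.00, 0.110 and 0.613). No list of checkpoint genes was set apart, so these genes are given one by one.

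Guides against MDM4 and the ubiquitin ligase MDM2, related RING-domain proteins that bind each other, lay on the other side. Those against MDM4 had a score change of −1.69 ± 0.38, which did not pass rank aggregation (RRA adjusted p = 0.652) but passed with the replicate block (0.00175) and by limma (0.0124). MDM2 changed by −0.87 ± 0.14 (RRA adjusted p = 0.4997, limma 0.0135). USP7, a deubiquitinase of MDM2, fell by 1.45 ± 0.15 (RRA adjusted p = 0.0421), a call that was lost with the block (0.0819) and without day 8 library 1 (0.149) or day 8 library 3 (0.0938).

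Gains also came from some inhibitors of the G1 to S transition, picked from the list of growth brakes. RB1, which represses E2F target genes until CDKs inactivate it, stood at 1191, 1132 and 1157 CPM at day 0 and 2413, 2104 and 2293 CPM at day 8. The days were well apart, and the gene score rose by 0.63 ± 0.13 (RRA adjusted p = 1.76e-07). Its relatives did not pass rank aggregation, RBL1 changing by −0.58 ± 0.12 (RRA adjusted p = 1.00, but limma 0.0333) and RBL2 by −0.08 ± 0.03 (RRA adjusted p = 1.00). CDKN1B, which encodes the CDK inhibitor p27, rose by 0.38 ± 0.12 (RRA adjusted p = 6.63e-04), and CDKN2C, which encodes p18, a CDK4 and CDK6 inhibitor, by 0.21 ± 0.02 (RRA adjusted p = 6.63e-04). Both CDK inhibitors missed the limma threshold, with adjusted p of 0.241 and 0.289. For CDKN2C only 1 of 10 guides lay beyond the upper control limit, so the call came from many guides a little above the other targets. CDKN2A changed by 0.15 ± 0.08 and missed the threshold at an RRA adjusted p of 0.0599, with 0.0360 under the block. On the side of the cell-cycle drivers, guides against CDK6 changed by −1.25 ± 0.12 and those against CCND1, the cyclin that activates CDK4 and CDK6, by −1.26 ± 0.14, neither past rank aggregation (RRA adjusted p = 0.596 and 0.104) but both past limma (0.00661 and 0.00236). CDK4 changed by −0.13 ± 0.17 (RRA adjusted p = 0.799).

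NF2, the cytoskeletal tumour suppressor that activates the Hippo kinases, rose by 0.35 ± 0.06 (RRA adjusted p = 7.86e-04, limma 0.0461), with 6 guides above the upper control limit. SMAD4, the shared mediator of TGF-beta signals, rose by 0.18 ± 0.04 (RRA adjusted p = 0.0093), but did not pass limma (0.389). PTPN14, a phosphatase that restrains the Hippo effector YAP, was called at an adjusted p of 0.00226 with a score change of only 0.11 ± 0.16. Its libraries overlapped between the days, its guides ranged from −1.41 to 1.03, and without day 8 library 1 its adjusted p was 0.0634. Of 23 genes listed as brakes on growth, 9 rose by rank aggregation (5 by limma) and none fell by rank aggregation, while 6 fell by limma. These 6 were the growth suppressors STK11 (−0.86), BAP1 (−0.82), TSC2 (−0.67) and RBL1 (−0.58), and MDM4 and MDM2, which stand in the list although they promote growth. The median change of all 23 listed genes was −0.08, turning to 0.22 with scaling on all guides and 0.06 on AAVS1. Over all genes 3.05% rose by rank aggregation and 0.807% by limma, and 35.2% fell by limma. Of 3 Hippo genes, grouped after values had been seen, NF2 and PTPN14 rose and STK4 changed by −0.38, with a median of 0.11.

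Loss of H3K9 silencing factors divided in direction. SETDB1, a methyltransferase that lays down the repressive H3K9 mark, went from 573.1, 546.9 and 544.8 CPM to 954.7, 918.2 and 843.7 CPM. Its score rose by 0.57 ± 0.06 (RRA adjusted p = 8.80e-07) without overlap of the days. MPHOSPH8, the H3K9-reading subunit of the HUSH complex, which recruits SETDB1, went from 1128, 1193 and 1096 CPM to 1823, 2347 and 2013 CPM and rose by 0.65 ± 0.14 (RRA adjusted p = 3.79e-07). EHMT1, which together with EHMT2 methylates H3K9 in euchromatin, fell by 1.24 ± 0.13 (RRA adjusted p = 0.0118), a call that ended with the block (0.0588) and without any 1 of the day 8 libraries (0.0543 to 0.0797). UHRF1, which couples H3K9 methylation to maintenance of DNA methylation, fell by 1.25 ± 0.17 (RRA adjusted p = 0.0376), but not without day 8 library 3 (0.313) or day 0 library 1 (0.0821). TRIM28, a corepressor that brings SETDB1 to zinc finger proteins, changed by −1.13 ± 0.05 (RRA adjusted p = 0.244, limma 2.40e-04). Over the 12 genes of the list 2 rose and 2 fell by rank aggregation, 2 rose and 5 fell by limma, and the median change was −0.41. Over all genes 3.05% rose and 3.14% fell by rank aggregation, and 0.807% rose and 35.2% fell by limma.

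Subunits of the BAF and PBAF remodellers, which slide and evict nucleosomes, held several gains by rank aggregation. SMARCC1, a core scaffold subunit, went from 733.4, 691.9 and 698.6 CPM at day 0 to 1066, 1173 and 1040 CPM, a rise of 0.52 ± 0.05 (RRA adjusted p = 2.66e-05). SMARCA4, the ATPase, went from 886.7, 844.7 and 876.1 CPM to 1606, 1404 and 1467 CPM and rose by 0.47 ± 0.09 (RRA adjusted p = 4.35e-04). Both sets of libraries were separate, and both genes passed limma (0.0356 and 0.0301). ARID2 and BRD7, which are specific to PBAF, rose by 0.20 ± 0.05 (RRA adjusted p = 0.00209) and 0.12 ± 0.06 (0.0378), and SMARCD1 by 0.12 ± 0.08 (0.00525), none of these 3 by limma. Without day 8 library 2 the ARID2 adjusted p was 0.0525. ACTL6A, an actin-related subunit shared with the INO80 and TIP60 complexes, stood at the other end with −1.65 ± 0.05 and all 10 guides below the lower control limit (RRA adjusted p = 0.0599, limma 3.11e-05). Of 21 subunits 5 rose and none fell by rank aggregation, against 2 that rose and 4 that fell by limma. Over all genes 3.05% rose and 3.14% fell by rank aggregation, and 0.807% rose and 35.2% fell by limma. Day 8 libraries lay wholly above day 0 for 3 subunits and wholly below for 10. The median change was −0.19, and it turned to 0.11 with scaling on all guides.

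INO80D, a metazoan subunit of the INO80 remodeller, rose by 0.37 ± 0.07 (RRA adjusted p = 1.33e-04, limma 0.0577), while other subunits of INO80, SRCAP and TIP60 lay lower. RUVBL2, an ATPase that assembles these complexes, fell by 1.29 ± 0.17 (RRA adjusted p = 0.0118, and 0.0529 without day 8 library 3), and TRRAP, the scaffold of TIP60 and SAGA, fell by 1.46 ± 0.13 (0.0418). Among 31 subunits 2 fell and 1 rose by rank aggregation, 18 fell and 0 rose by limma, and the median change was −0.69. Over all genes 3.14% fell and 3.05% rose by rank aggregation, and 35.2% fell by limma. DYRK1A, a kinase that promotes exit from the cell cycle, rose by 0.11 ± 0.04 (RRA adjusted p = 0.00108, limma 0.511). CHD8, a remodeller, rose by 0.22 ± 0.05 (RRA adjusted p = 0.00422, limma 0.253). KEAP1, the adaptor through which CUL3 degrades NRF2, rose by 0.11 ± 0.04 (RRA adjusted p = 0.0488, limma 0.524). Its call was lost without any 1 of the day 8 libraries (0.0525 to 0.212) and without day 0 library 1 (0.0941).

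Enriched calls with a score change near 0 need their values beside them. KAT6A and KAT6B, related acetyltransferases, had changes of 0.14 ± 0.17 and 0.08 ± 0.05 (RRA adjusted p = 0.00301 and 0.0429), MLLT3, a reader in the super elongation complex, 0.09 ± 0.06 (0.00525), KDM5C, an H3K4 demethylase, 0.13 ± 0.07 (0.0105), SUV420H1, an H4K20 methyltransferase, 0.15 ± 0.04 (0.00961), and MBD4, a DNA glycosylase, 0.14 ± 0.21 (0.00554). TAF1L, a testis-expressed copy of TAF1 for which the specificity of the guides was not checked, was called enriched at 0.0390 with a change of −0.01 ± 0.06. None of these 7 passed limma, whose adjusted p ran from 0.532 to 0.933, and MBD4 also lost its call with the block (0.355). Each also lost it without at least 1 library: KAT6A without day 8 library 3 (0.318), MLLT3 without day 8 library 1 (0.138), KDM5C without day 8 library 1 (0.0623) or day 0 library 1 (0.119) or 3 (0.0529), SUV420H1 and MBD4 without day 8 library 1 (0.0683 and 0.863) or 3 (0.0914 and 0.385), and KAT6B without any day 8 library (0.121 to 0.300) or day 0 library 3 (0.132). TAF1L lost it without any day 8 library (0.0843 to 0.135) or day 0 library 2 (0.0691) or 3 (0.0622). Of the 34 enriched genes 32 had a score change above 0, and all 34 lay above the AAVS1 median of −0.14.

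**Figure D3:**
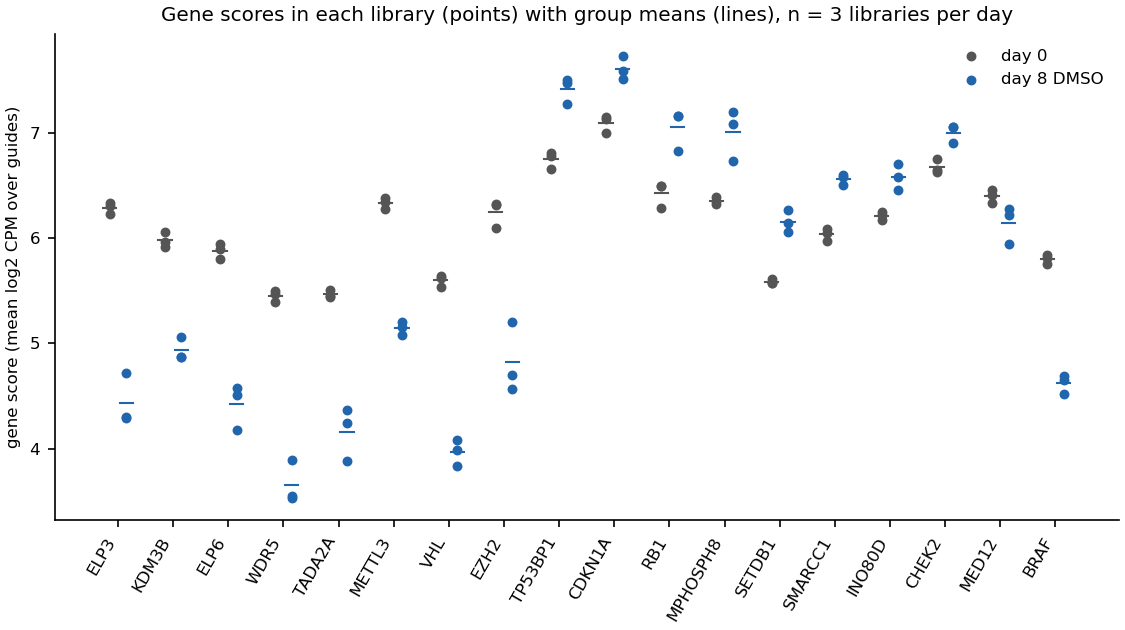
Gene scores (y axis, mean log2 CPM over guides) of 16 of the leading genes and of MED12 and BRAF (x axis) in each of 3 libraries at day 0 and 3 at day 8 in DMSO, with lines at the group means. Days do not overlap for 8 of the leading depleted genes (ELP3 to EZH2), for 8 of the leading enriched genes (TP53BP1 to CHEK2) or for BRAF, and the separation is smallest for MED12, at −0.25 ± 0.11.

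The deepest loss of the library was that of ELP3, the catalytic subunit of Elongator, a complex that modifies the wobble uridine of tRNAs and so supports decoding of certain codons. ELP3 guides summed to 904.2, 875.6 and 910.6 CPM at day 0 and 350.7, 341.8 and 388.8 CPM at day 8, well below every day 0 library. The score fell by 1.85 ± 0.15 (RRA adjusted p = 5.86e-06), and all 10 guides were below the lower control limit, with changes from −2.97 to −0.88. ELP6, an accessory subunit, went from 636.5, 621.0 and 574.8 CPM to 267.2, 264.1 and 223.1 CPM and fell by 1.46 ± 0.13 (RRA adjusted p = 3.33e-04). ELP5 fell by 1.25 ± 0.10 (0.0376, and 0.109 without day 8 library 1). ELP2 and ELP4 changed by −1.23 ± 0.10 and −1.14 ± 0.09, short of the rank aggregation threshold (0.0599 and 0.678) but past it with the block (0.00562 and 0.0188) and by limma (0.00269 and 5.43e-04). ALKBH8, which completes the same tRNA modification, changed by −0.35. Of these 6 genes, grouped after values had been seen, 3 fell by rank aggregation, 5 with the block and 5 by limma. Over all genes these shares were 3.14%, 7.26% and 35.2%.

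Several genes of the DNA damage response were also lost. HUS1, part of the clamp that loads at damaged DNA, fell by 1.52 ± 0.14 (RRA adjusted p = 0.0421), H2AFX, the histone variant phosphorylated at breaks, fell by 1.45 ± 0.19 (0.0232), and RNF8, the ligase that marks chromatin at breaks, by 1.27 ± 0.14 (0.0376, and 0.0767 with the block). PARP1, a sensor of breaks, fell by 1.01 ± 0.13 (0.0211), though not without day 8 library 1 (0.216). BRCA2, a mediator of recombination, changed by −1.19 ± 0.13 and passed only with the block (0.0302) and by limma (1.77e-04). In the 20 genes grouped as DNA damage and repair after values had been seen, 4 fell and 2 rose (TP53BP1 and CHEK2) by rank aggregation. By limma 13 fell and 1 rose, and the median change was −1.0. Over all genes 3.14% fell and 3.05% rose by rank aggregation, and 35.2% fell and 0.807% rose by limma.

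WDR5, a scaffold of the MLL and SET1 methyltransferases and of the ATAC acetyltransferase, had the second lowest score change. Its guides summed to 533.0, 563.0 and 535.7 CPM at day 0 and to 225.9, 328.6 and 225.1 CPM at day 8, and the score fell by 1.79 ± 0.12 (RRA adjusted p = 5.23e-04). KMT2A, an H3K4 methyltransferase of this family, fell by 1.38 ± 0.32 (0.0161), with day 8 library 1 nearer to day 0 than the others, and the call ended without day 8 library 2 (0.0626) or 3 (0.112). Of 21 MLL and SET1 subunits 2 fell by rank aggregation and 12 by limma, with a median of −0.78. Shares over all genes, for this and the next lists, were 3.14% by rank aggregation and 35.2% by limma. TADA2A, a subunit specific to the ATAC complex, fell by 1.30 ± 0.15 (RRA adjusted p = 6.63e-04, and 0.0634 without day 8 library 1). With WDR5 and TRRAP it made 3 of 26 SAGA and ATAC genes called by rank aggregation, against 18 by limma and a median of −0.55. TFIID, the general factor that shares subunits with SAGA, had a median of −0.71 over 12 genes, of which 9 fell by limma and TAF1L was the 1 call by rank aggregation.

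EZH2, the methyltransferase of Polycomb complex 2, was lost through all 10 guides. It went from 947.2, 856.5 and 954.2 CPM to 319.5, 352.0 and 442.2 CPM, and the score fell by 1.42 ± 0.20 (RRA adjusted p = 0.00153). RBBP4, a histone-binding subunit shared with NuRD and the CAF-1 chaperone, fell by 1.38 ± 0.16 (0.0112). The other core members EED and SUZ12 changed by −1.09 ± 0.07 and −0.65 ± 0.06, past limma (7.26e-04 and 0.00141) but not past rank aggregation (0.0599 and 0.713). EZH1, a second methyltransferase, changed by −0.41, and the accessory subunits PHF19, PHF1, MTF2, AEBP2 and JARID2 by −0.25 to 0.00. The 11 genes of this complex had a median of −0.41. Polycomb complex 1 had a median of −0.23 over 24 genes (0.07 with scaling on all guides), with USP7 as the only one that fell and none that rose.

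CENPA, the histone H3 variant of centromeres, went from 811.8, 791.6 and 775.4 CPM to 338.2, 458.3 and 407.5 CPM and fell by 1.69 ± 0.14 (RRA adjusted p = 0.0025). HJURP, its chaperone, changed by −1.52 ± 0.21 (0.136, and 0.0188 with the block). The 17 histone chaperone and centromere genes had a median of −1.01, all below 0 as were 1056 of all 1115 genes, with 2 of them falling by rank aggregation and 16 by limma. Over all genes 3.14% fell by rank aggregation and 35.2% by limma. DNMT1, the maintenance DNA methyltransferase, changed by −1.34 ± 0.11 (0.0599, and 0.0155 with the block). The methyltransferases DNMT3A and DNMT3B and the dioxygenases TET1, TET2 and TET3 changed by −0.28 to −0.14. Of 15 DNA methylation genes 2 fell, 1 rose and the median was −0.24 (0.06 with scaling on all guides). MBD3, a NuRD subunit and the second of those that fell, changed by −0.70 ± 0.13 (0.0421) and lost its call with the block (0.283) and when any library other than day 0 library 3 was left out (0.0862 to 0.258).

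VHL and CUL2, the substrate receptor and the scaffold of the ligase that degrades hypoxia-inducible factors, fell together. VHL went from 522.5, 514.6 and 494.8 CPM to 349.7, 249.5 and 208.5 CPM, and its score fell by 1.63 ± 0.07 (RRA adjusted p = 0.00147). CUL2 went from 745.6, 738.2 and 754.0 CPM to 320.0, 336.4 and 366.9 CPM and fell by 1.31 ± 0.09 (0.0131). The other cullin genes lay closer to the median of all genes, with CUL1 at −0.82, CUL3 at −0.44, CUL4A at −0.34, CUL4B at −0.18 and CUL5 at −0.07. The list of 16 genes had a median of −0.41, with 2 falling and 1 rising by rank aggregation, and 6 falling by limma. Over all genes 3.14% fell and 3.05% rose by rank aggregation, and 35.2% fell by limma.

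Several further regulators fell by rank aggregation. METTL3, the catalytic subunit of the writer of m6A in RNA, fell by 1.19 ± 0.05 (RRA adjusted p = 6.86e-04), with 8 guides below the lower control limit and 1 guide at 1.18 in the opposite direction. Its partner METTL14 changed by −0.31 and METTL16, another RNA methyltransferase, by −1.03 ± 0.23 (limma 0.00122), and the 6 m6A genes had a median of −0.59, 3 of them falling by limma. KDM3B, an H3K9 demethylase, fell by 1.04 ± 0.08 (1.79e-04, and 0.0683 without day 8 library 3), in a list of 24 demethylases with a median of −0.39 and 1 rise. WDR77, the partner of the arginine methyltransferase PRMT5, fell by 1.54 ± 0.07 (0.00301), beside PRMT5 at −1.37 ± 0.25 (0.335) and PRMT1 at −1.58 ± 0.18 (0.0599, and 0.0375 with the block), and the 10 genes had a median of −0.66, with 3 falling with the block and 6 by limma. HDAC3, the deacetylase of the NCoR corepressor, fell by 1.41 ± 0.12 (0.0429, but 0.149 without day 8 library 1 and 0.233 without library 2) while the 33 deacetylase and corepressor genes had a median of −0.24 (0.06 with scaling on all guides). DICER1, which processes microRNA precursors, fell by 1.40 ± 0.04 (0.00452) with all 10 guides below the limit. RPTOR, the scaffold of mTOR complex 1, fell by 1.26 ± 0.17 (0.0156, and 0.0551 without day 8 library 2), the only call among 19 genes of receptor kinases, PI3K and mTOR, whose median was −0.34. GTF3C4, a subunit of the RNA polymerase III factor TFIIIC, fell by 1.69 ± 0.20 (0.0325), UBE3D, a ubiquitin ligase, fell by 1.45 ± 0.07 (0.0192), and PPP2R1A, the scaffold of the PP2A phosphatase, by 1.27 ± 0.17 (0.0482). These last 3 lie outside the rule for named genes and were chosen after their values were seen.

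Genes of core cell machinery were lost as groups, although few of them were called one by one. All 37 cytosolic ribosomal proteins had their day 8 libraries below day 0, as did 788 of all 1115 genes, with a median change of −1.11 and a lowest value of −1.77 (RPL11). Rank aggregation called 1 of them, RPL36 at −1.15 ± 0.15 (RRA adjusted p = 0.0325, but 0.0894 with the block, 0.0952 without day 8 library 1 and 0.134 without library 3), against 13 with the block and 30 by limma. Shares that fell over all genes were 3.14% by rank aggregation, 7.26% with the block and 35.2% by limma. RPL11 at −1.77 ± 0.17 and RPS15A at −1.74 ± 0.19 were deeper than most called genes, yet had RRA adjusted p of 0.110 and 0.294 (0.000997 and 3.68e-04 with the block). Spliceosome genes had a median of −1.03 over 20 genes, all separated between the days, led by SF3B1 at −1.70 ± 0.13 (0.471, and 0.00856 with the block). CDC5L, a splicing factor, was the 1 called, at −1.35 ± 0.20 (0.00669), but not with the block (0.115) or without day 8 library 1 (0.147) or 2 (0.228). Proteasome subunits had a median of −0.97 over 10 genes, with 9 falling by limma and none by rank aggregation. Replication genes had a median of −1.06 over 10 genes, and POLE4, a subunit of polymerase epsilon, fell by 1.06 ± 0.02 (0.0251, and 0.0902 without day 8 library 3). Cell-cycle drivers had a median of −0.85 over 14 genes, 10 of them falling by limma, and the anaphase-promoting complex, grouped after values had been seen, −0.80 over 6 genes, with ANAPC2 falling by 1.25 ± 0.12 (0.0376, and 0.103 without day 8 library 3).

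Guides against core machinery also had fewer reads to lose. The median day 0 gene score was 4.93 for ribosomal proteins, 5.16 for spliceosome genes and 5.40 for the proteasome, against 5.99 for all genes and a median log2 CPM of 6.99 for control guides. It was 5.22 for the 89 genes with at least 9 guides below the lower control limit. Of the 24 guides without reads in at least 1 day 8 library, 8 were aimed at ribosomal proteins. The part that low day 0 counts play in the rank aggregation calls was not tested beyond a minimum of 100 reads per guide at day 0, with which 40 genes were called depleted.

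**Figure D4:**
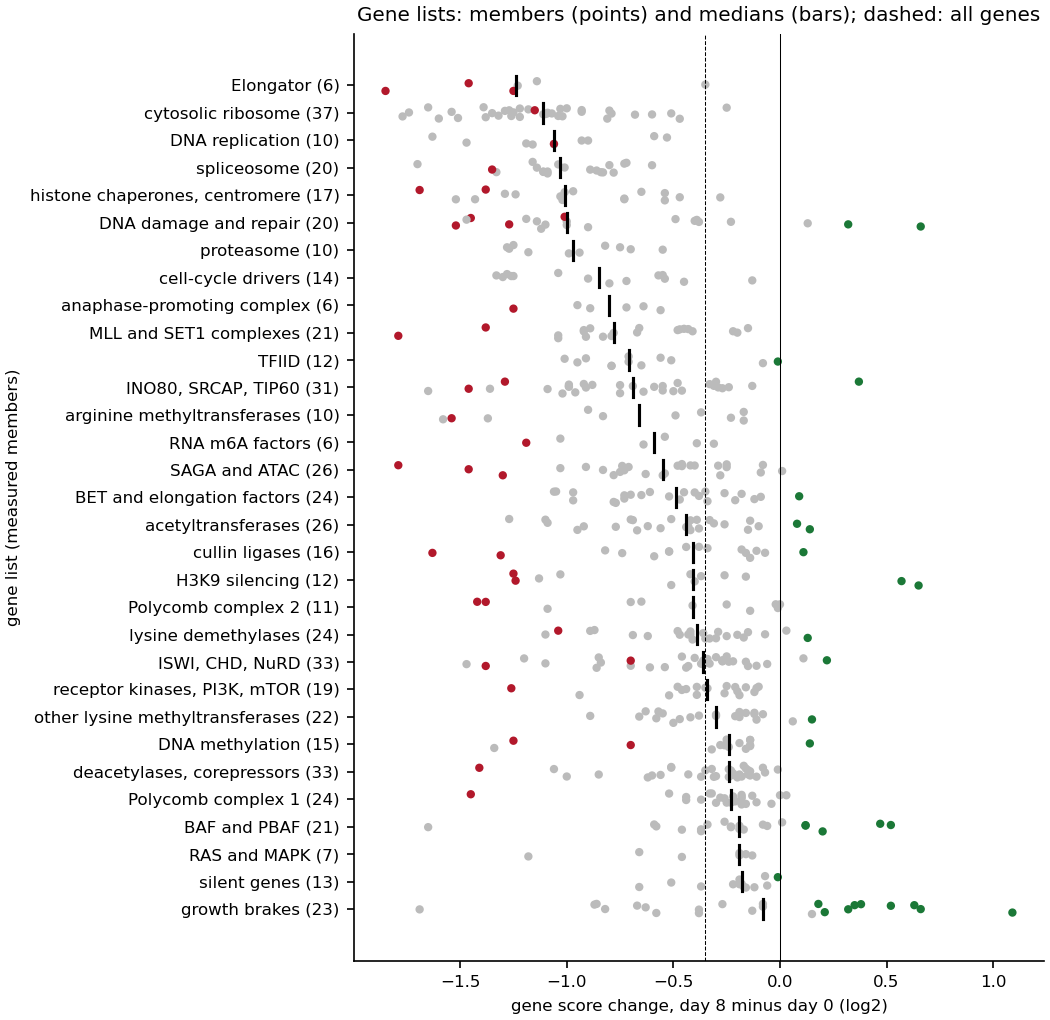
Gene score changes from day 0 to day 8 (x axis, log2) of the members (points) of each gene list with at least 6 measured genes (y axis, number measured in brackets), with bars at list medians, red for members called depleted and green for members called enriched by rank aggregation. Elongator, ribosome, replication, spliceosome and chaperone lists lie to the left of the dashed line at the median of all genes (−0.35), and the growth brakes have the median furthest to the right (−0.08).

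Several other lists had medians near that of all genes, −0.35. Medians were −0.36 for 33 ISWI, CHD and NuRD genes (2 fell, 1 rose), −0.30 for 22 other lysine methyltransferases (1 rose), −0.44 for 26 acetyltransferase genes (2 rose) and −0.49 for 24 BET and elongation genes (1 rose). Rank aggregation gave the calls in brackets, against 3.14% falling and 3.05% rising over all genes. By limma 11, 7, 12 and 10 members of these lists fell and 0 rose, against 35.2% and 0.807% over all genes. DOT1L, the H3K79 methyltransferase, changed by −0.16. A list of 13 genes that are mostly silent outside germline, muscle or neural tissue had a median of −0.18 (0.12 with scaling on all guides), close to the −0.14 of AAVS1 guides. RNA polymerase subunits (3 genes, median −0.83) and cohesin genes with CTCF (4 genes, median −0.78) lay lower and held no call by rank aggregation, while 3 of the 3 and 2 of the 4 fell by limma. No mitochondrial ribosomal protein was in the library.

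The oncogenic pathway of the line was represented by few genes. BRAF guides summed to 697.6, 677.9 and 651.7 CPM at day 0 and to 335.1, 310.0 and 333.3 CPM at day 8, with all 10 guides below the lower control limit and no overlap. The change of −1.18 ± 0.06 did not pass rank aggregation (RRA adjusted p = 0.264) but passed with the block (0.00811) and by limma (3.36e-04). MAP2K1, which encodes the kinase MEK1, changed by −0.66 ± 0.07 (0.426, limma 0.0088), NRAS by −0.19 ± 0.16 (0.339) and NF1, a brake on RAS, by −0.29 ± 0.10 (1.00). With scaling on all guides NRAS turned to 0.10 and NF1 to 0.01. Of 7 RAS and MAPK genes none passed rank aggregation and the median was −0.19 (0.10 with scaling on all guides), and of NF1 and CBL, the listed brakes on this pathway, neither did.

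Guides against the gene that the cells already lacked changed little. MED12 guides summed to 999.1, 958.3 and 983.8 CPM at day 0 and to 910.9, 856.1 and 955.9 CPM at day 8, so that each day 8 library lay a little below the lowest day 0 library. The score change was −0.25 ± 0.11 (RRA adjusted p = 1.00, limma 0.138), with 2 guides below the lower control limit. It was −0.11 with scaling on AAVS1 guides and 0.05 with scaling on all guides. CDK8, the kinase of the Mediator kinase module, changed by −0.04 ± 0.07 (RRA adjusted p = 0.471), turning to 0.11 with scaling on AAVS1 guides and 0.26 on all guides, and MED19, another Mediator subunit, by −0.57. CTNNB1, the only listed melanocyte gene present, changed by −0.19.

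Guides taken one at a time gave few calls in the main fit, and more in some other fits. The main fit also holds the vemurafenib and day 14 libraries of the screen. In the edgeR test over all 15 libraries of the screen, 3 guides rose (0.0246% of 12214) and 0 fell (0%), while at an unadjusted p under 0.05 there were 41 and 736. With DESeq2 16 rose and 142 fell, and with edgeR on the 6 libraries alone 31 and 407. Among those that rose, MPHOSPH8 guide 4 went from 155.3, 162.7 and 147.4 CPM to 519.7, 478.9 and 406.5 CPM (0.0212). Leaving out any 1 of the 6 libraries reduced the 3 guides to 1. The largest loss was guide 6 of ELP2, from 49.34, 44.42 and 36.42 CPM to 1.32, 6.78 and 0.657 CPM, a log2 change of −4.13 that did not pass (edgeR adjusted p = 0.747).

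The same interval was sampled in MED12 knockout cells with a whole-genome library, with other guides (mostly 4 per gene) and other libraries. Over the 1089 genes in both screens the score changes correlated across genes with Pearson r = 0.66 and Spearman rho = 0.64, given as a description since genes are not independent replicates and both screens share the knockout and the core essential genes. The median change over these genes was −0.35 here and −0.53 in the whole-genome screen, and the median SE was 0.11 against 0.30. All 35 depleted genes had a change below 0 there, as did 975 of the 1089, and all 35 lay below −0.43, the median of all genes of that screen, as did 639 of the 1089. Among them were ELP3 at −1.36 and WDR5 at only −0.48. Of 32 measured enriched genes 20 were above 0, against 108 of the 1089. Among them were TP53BP1 at 0.64 ± 0.48, CDKN1A at 0.53 ± 0.27 and SETDB1 at 0.56 ± 0.29, none called there (RRA adjusted p = 0.341, 0.139 and 0.277). MPHOSPH8 stood at 0.05 ± 0.30, with a median guide change of 0.53 (RRA unadjusted p = 0.0159, adjusted 0.473), CDKN1B at −0.07 ± 0.20 and ARID2 at −0.28 ± 0.37. Rank aggregation over 19101 genes called 30 depleted (0.157%) and 5 enriched (0.0262%), and POLE4 (RRA adjusted p = 0.0370) was the 1 gene called depleted in both screens.

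**Figure D5:**
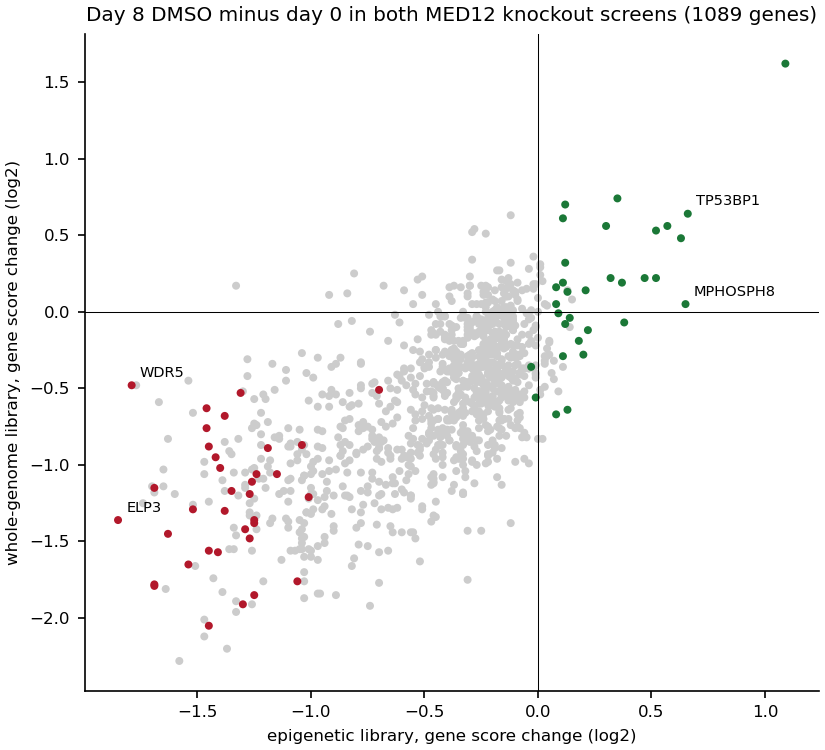
Gene score change from day 0 to day 8 in DMSO (log2) in the epigenetic library (x axis) and in the whole-genome library (y axis) for 1089 genes, with genes called by rank aggregation in the epigenetic library in red (depleted) and green (enriched). All 35 red points lie below 0 on the y axis, as do 975 of all 1089, and 12 of the 32 green points do not lie above 0 on the y axis.

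At day 14 in DMSO, compared with the same day 0 libraries, the leading genes lay further out in gene score. The median of all genes was −0.51 and the 5th percentile −1.91, while AAVS1 guides stood at −0.16 against −0.14 at day 8. MPHOSPH8 stood at 1.37, SMARCA4 at 1.20 and SETDB1 at 1.13, against 0.65, 0.47 and 0.57 at day 8. ELP3 stood at −2.68 and WDR5 at −2.66, against −1.85 and −1.79. Rank aggregation called 19 depleted (1.7%) and 26 enriched genes (2.33%) at day 14, against 35 and 34 at day 8. Not every leading gene kept its call. WDR77 (RRA adjusted p = 0.2165), RUVBL2 (0.2786), CDC5L (0.0929), VHL (0.054) and CDKN2C (0.0922) lost it, and the other leading genes kept it. For CENPA the median guide change was −0.94 at day 14 against −1.28 at day 8, although its score went from −1.69 to −2.11. The comparisons share their day 0 libraries, so the values are given side by side only.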

How the data were processed

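Guides were amplified from genomic DNA and sequenced. The authors' deposited tables hold unnormalized read counts, 1 row per guide and 1 column per library. Per the submitters' processing notes, bcl2fastq, HISAT2 and HTSeq were used, with versions not given in the sources used here, and no column lacked a sample label. Guide sequences were not used here. Symbols are printed as deposited, of which 1069 of 1115 are current and 46 are older names in the RefSeq gene table.

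In R 4.3.3, the edgeR filter on low counts (filterByExpr, minimum 10, minimum total 15) removed none of the 12214 guides. Libraries were scaled by TMM on the 1064 control guides. The edgeR 4.0.16 quasi-likelihood test, 2-sided, was fitted to all 15 libraries of the screen with 1 mean for each of 5 groups. Signed guide p-values were ranked among gene-targeting guides and combined per gene by robust rank aggregation (alpha 0.25, at least 3 guides) with an exact null distribution. The smaller p of the directions was multiplied by 2 and adjusted by Benjamini-Hochberg over 1115 genes, with a threshold of 0.05. Gene scores are means of log2(CPM + 0.5) over guides, so that losses of guides with few reads are understated, and were also tested with limma 3.58.1. The code was tested on simulated data. Alternatives changed the scaling, filter, libraries, combination and tool (DESeq2 1.42.0), and left out each library in turn.

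Replicate numbers from the labels paired the samples: over 12214 guides, deviations from the group means correlated at 0.51 to 0.53 between the days for the same number and at −0.29 to −0.22 for different numbers. The main fit, each SE and the exact permutation tests do not use this pairing. A value given with the block comes from the same fit with the replicate number as a term.

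Members and the 35 gene lists were chosen with earlier results of these data known, and 4 further lists after values had been seen. Named genes were up to 15 per direction with the lowest adjusted p among called genes whose libraries separated by day, up to 4 called members per list, and MED12, CDK8, BRAF, NRAS, MAP2K1 and NF1. Some genes that meet these rules are not reported here. Genes named beside these illustrate lists or complexes and were chosen after their values were seen.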

Additional observations from a re-analysis of the deposited data

How the results depend on the processing

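Against 35 depleted and 34 enriched genes, scaling on all guides gave 55 depleted genes, the replicate block 81, the 6 libraries alone with the block 76, a rank aggregation alpha of 0.1 gave 23, ranks among control guides 626, limma 392, limma with the block 583 and limma with AAVS1 scaling 237. Enriched genes numbered 9 by limma, 13 with its block, 12 with AAVS1 scaling and 7 by edgeR on summed counts. The median gene change of −0.35 became −0.05 with scaling on all guides and −0.21 on AAVS1. Guides called depleted and enriched (0 and 3) became 142 and 16 with DESeq2, 407 and 31 with 6 libraries, 15 and 13 with the block, and 1325 and 92 with 6 libraries and the block. The fits with limma and the block, limma with AAVS1 scaling and 6 libraries with the block were chosen after seeing the data. List medians that changed sign with scaling on all guides were those of BAF and PBAF (0.11), DNA methylation (0.06), growth brakes (0.22), deacetylases (0.06), silent genes (0.12), Polycomb complex 1 (0.07) and RAS and MAPK (0.10), and on AAVS1 that of growth brakes (0.06). With 1 library left out, depleted genes ranged from 28 to 46, enriched genes from 23 to 32, guides enriched stayed at 1, and the AAVS1 difference ranged from −0.29 to −0.22; 14 of the 35 and 17 of the 34 genes were called in all 6 such fits. The causes of these changes were not tested. Beyond the genes named with it, the block ended the call of no other named gene. With 3 libraries per day the unpaired exact test cannot give a p below 0.1, and for the 24 guides without reads in at least 1 day 8 library the loss has only a lower bound there.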
